A study of Mus musculus with 58 samples.

Results

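Castrated male and ovariectomized female mice both lack gonads, and their adipose stem cells of the ASC2 type were compared here, in 8 libraries of each group out of 58 libraries in the series. The members were chosen by title alone, as every library named for castration or ovariectomy together with ASC2. Of 10876 genes tested, 391 (3.60%) differed between the groups (1670 at an unadjusted p below 0.05), and 370 of these lay on autosomes, 152 higher in castrated and 218 higher in ovariectomized ASC2. Genes that were higher in castrated ASC2 whichever libraries were compared included Agt, which encodes angiotensinogen, Cd36 and Fabp7, which encode a fatty acid receptor and a fatty acid binding protein, and Slc29a1, a nucleoside transporter gene. Genes that were higher in ovariectomized ASC2 in the same way included the contractile genes Tagln, Myl9, Actg2 and Tpm1 and the genes of the secreted proteins Inhba, Thbs1 and Dkk3. Most of the other genes higher in castrated ASC2 in this way are best known from macrophages, which also use Cd36. Many of the other differences followed the division of the libraries into sets, which runs through both groups and is described before the genes.

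Adipose stem cells are fibroblast-like cells of the stromal vascular fraction of fat that can become adipocytes and that also make extracellular matrix. ASC2 carry the surface peptidase DPP4 and express Pi16 and Cd55, and they are usually placed upstream of the more committed preadipocytes that lack DPP4. Gonadal steroids act on such cells through nuclear receptors for androgens, estrogens and progesterone, and sex chromosome genes act without them, so a comparison of animals without gonads asks which sex differences remain without circulating gonadal steroids.

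The animals were C57BL6/J mice. Operations, castration of males or ovariectomy of females, were done at 4 weeks and the mice were killed at 10 weeks of age, after 4 hours of fasting. Cells without CD45 and CD31 and with CD34 and DPP4 were sorted from inguinal fat (iWAT), and each sort gave 1 bulk Smart-seq3 library. The comparison groups used further on were 8 control male and 8 control female ASC2 libraries, whose labels name no operation. The letters I to P in the titles are plate rows. The study states 8 mice per group and counts its samples as biological replicates. The labels do not say which library came from which animal, so p-values measure the spread between libraries.

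Total counts lay between 299330 and 921014 in castrated (median 675749) and between 106566 and 1118901 in ovariectomized libraries (median 735439), and neither totals (p = 0.92) nor detected genes (p = 0.694) differed by a two-sided exact permutation test over 12870 arrangements (n = 8 and 8). Levels are given in CPM, counts scaled to a TMM-corrected library size of 1000000. Differences are log2 fold changes of castrated over ovariectomized with their standard error (SE), with p-values from edgeR quasi-likelihood fits, and a gene was called at a Benjamini-Hochberg adjusted p below 0.05. In bulk libraries, fewer cells of a type and less RNA per cell cannot be told apart.

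The sex chromosome transcripts matched the labels in all 16 libraries. The summed level of 4 Y-linked genes was 56.8 to 103 CPM in castrated and 0 CPM in ovariectomized libraries. Xist, the RNA that silences 1 X chromosome in females, was at 0 to 8.17 CPM (median 0.516) in castrated and 26.8 to 83.8 CPM (median 68.8) in ovariectomized libraries, with no overlap. The defining genes of ASC2 were present in both groups, with Dpp4 at 50.6 to 221 CPM (median 113) in castrated and 53.6 to 153 CPM (median 88.6) in ovariectomized libraries. Of 15 ASC2 markers, 0 were called by edgeR, DESeq2 or limma voom, with 3 at an unadjusted p below 0.05 in each. All 15 had higher fitted values in castrated libraries, with a median log2 fold change of 0.30 beside 0.03 over all genes tested.

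Libraries of both groups fell into 2 sets by Tcf21 and Wt1, transcription factor genes known from visceral fat and mesothelium. Tcf21 was at 8.84 and 21.6 CPM in castrated libraries I and J, at 30.4 to 51.0 CPM in ovariectomized libraries I to L, and at 0 CPM in the other 10 libraries. Wt1 was at 16.6 and 21.6 CPM in the same castrated libraries, at 11.8 to 28.9 CPM in the same ovariectomized libraries, and at 0 CPM in the other 10. Tbx15, a transcription factor gene known from subcutaneous fat, was at 0 to 8.39 CPM in the 6 libraries with Tcf21, at 8.96 to 36.1 CPM in castrated libraries K to P and at 13.9 to 36.3 CPM in ovariectomized libraries M to P. All 16 libraries are labelled iWAT, and by these 3 genes the 6 libraries with Tcf21 reads went against that label. Their depot of origin cannot be told from the labels, so differences that rest on them may be between depots as well as between castrated and ovariectomized mice. The part of the fat depot in the differences was not tested, and the main results are therefore also given for the libraries without Tcf21 reads (6 castrated, 4 ovariectomized) and with them (2 castrated, 4 ovariectomized).

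Markers of cells other than ASC2 also differed in level between libraries, and the source of their reads was not tested. Krt8, a keratin gene of simple epithelium such as that of the mammary gland, was at 202 to 545 CPM in ovariectomized libraries M to P, at 1.69 to 18.3 CPM in ovariectomized libraries I to L and at 0 to 12.7 CPM in castrated libraries. The summed level of the 9 macrophage and leukocyte markers was 961 and 976 CPM in castrated libraries I and J, 240 to 664 CPM in castrated libraries K to P and 134 to 261 CPM in ovariectomized libraries, although the sort excluded CD45. Of 8 macrophage markers tested, all had higher fitted values in castrated libraries and 3 were called (Cd68, Adgre1 and Csf1r). Ptprc, which encodes CD45 itself, was at 3.27 to 34.4 CPM in castrated and 0 to 12.1 CPM in ovariectomized libraries. None of the 7 adipocyte markers had enough reads to be tested. Castrated library K stood apart by a high level of Nqo1 and Akr1c18 and a low level of Col15a1, and ovariectomized library P was the shallowest.

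**Figure D1:**
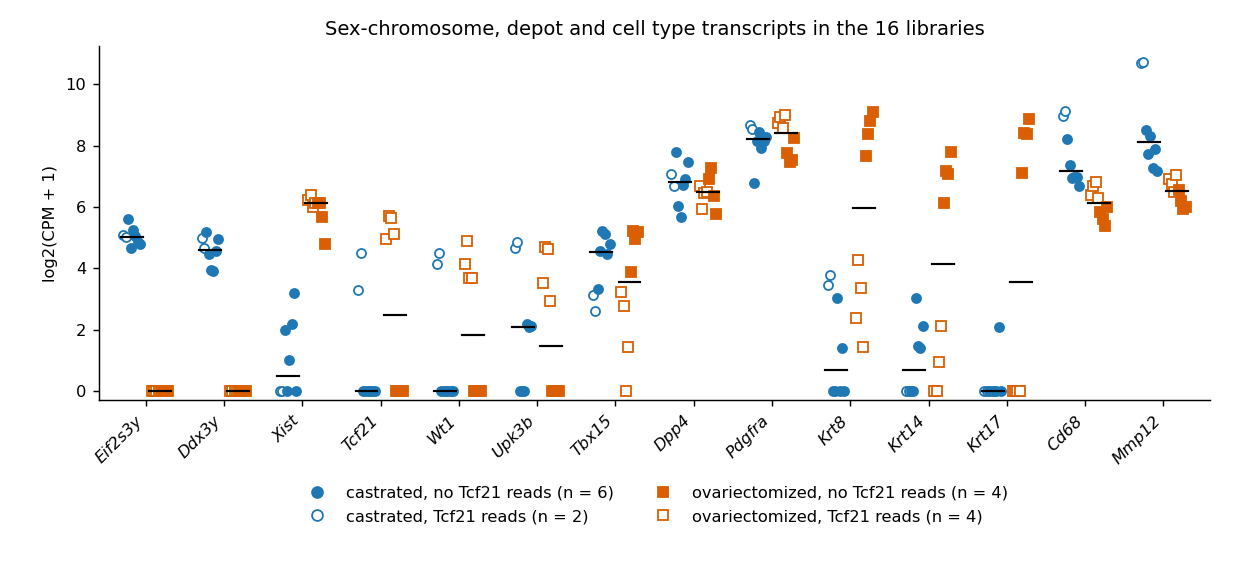
Level of 14 marker transcripts in each of the 16 libraries, as log2 of CPM plus 1, with castrated libraries as circles, ovariectomized libraries as squares, open symbols for libraries with Tcf21 reads and a black line at the group median. Eif2s3y and Ddx3y are at 0 CPM in every ovariectomized library, Tcf21 and Wt1 rise above 0 in 2 castrated and 4 ovariectomized libraries, and Krt8, Krt14 and Krt17 are high in the 4 ovariectomized libraries without Tcf21 reads.

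The division into library sets changed how many genes were called. In the libraries without Tcf21 reads 99 genes (0.910%) differed, 94 of them autosomal, with 43 higher in castrated and 51 higher in ovariectomized ASC2 (0.432% and 0.478% of genes of any chromosome by direction). In the libraries with Tcf21 reads 475 genes (4.37%) differed, 460 of them autosomal, with 228 higher in castrated and 232 higher in ovariectomized ASC2 (2.18% and 2.19% by direction). A fit of all 16 libraries with a term for Tcf21 reads called 357 genes (3.28%), with 189 autosomal genes higher in castrated and 150 higher in ovariectomized ASC2 (1.86% and 1.43% by direction). For 86 genes (0.791%) the difference itself was not the same in the 2 sets.

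All 152 autosomal genes that were higher in castrated ASC2 had the same direction in both sets, a count that the pooled test favours because both sets entered it. Of these genes, 22 were called in each set, 126 were called in the fit with the Tcf21 term, and 10 differed between the sets. Of the 218 autosomal genes that were higher in ovariectomized ASC2, 194 had the same direction in both sets, 15 were called in each set, 126 in the fit with the term, and 26 differed between the sets. The 2 groups did not overlap over the 16 libraries for 60 genes of any chromosome (0.552%), 39 of them higher in castrated (0.359%) and 21 in ovariectomized ASC2 (0.193%). Among the called autosomal genes, 31 of the 152 and 19 of the 218 were without overlap.

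**Figure D2:**
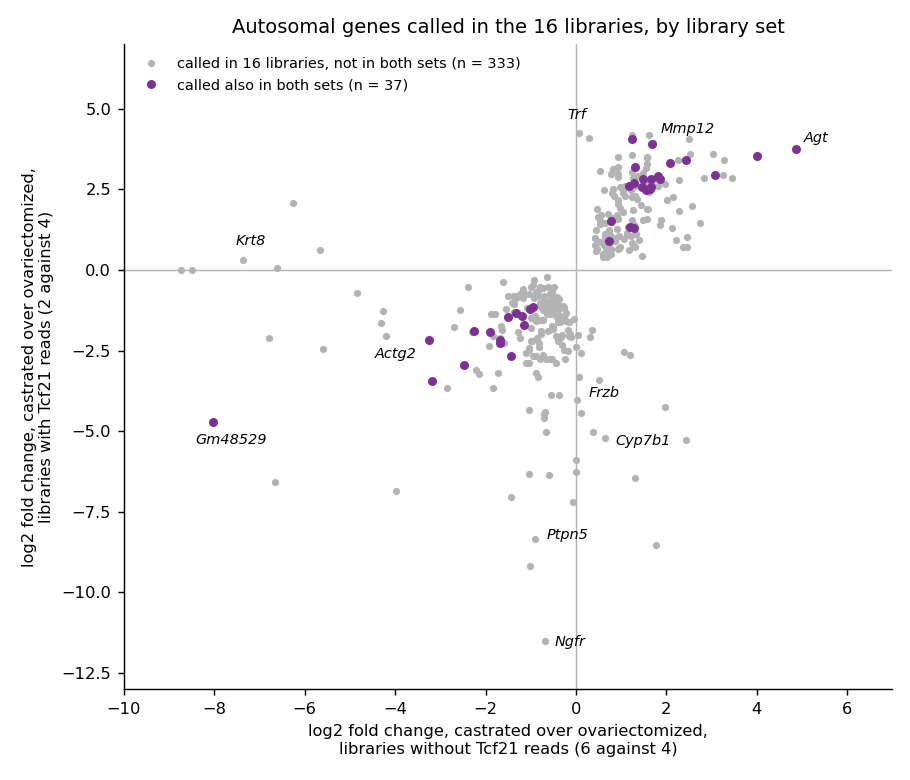
Log2 fold change of castrated over ovariectomized ASC2 for the 370 called autosomal genes, in libraries without Tcf21 reads (horizontal axis) and with Tcf21 reads (vertical axis), with the 37 genes called in both sets in purple. Trf and Ngfr lie near 0 on the horizontal axis and Krt8 near 0 on the vertical axis. Fitted values of genes without reads in a group depend on the prior count.

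The 37 autosomal genes called in all 16 libraries and again in each set (22 and 15 by direction, 20 of them without overlap between groups) were singled out after their values had been seen. Agt, the precursor of angiotensin, was at 4.90 to 53.7 CPM (median 20.2) in castrated and 0 to 2.89 CPM (median 0.987) in ovariectomized libraries. Every castrated library was above every ovariectomized library. The log2 fold change was 3.97 (SE 0.68, edgeR adjusted p = 2.67e-04), with 4.87 in libraries without and 3.73 in libraries with Tcf21 reads. The difference rested on few reads in the ovariectomized group, 3 at most in any library. The study lists Agt among male-enriched transcripts that were lower after castration and proposes control by androgens. Its supplement adds that the difference between control samples was not significant. In ASC2, Agt had 3 to 52 reads in castrated libraries and 3 to 18 in those labelled control male. Castrated against control male libraries were not tested here. Of the 9 genes tested of the renin-angiotensin list, Agt was the only one called, against 3.60% of all genes, although 2 members were called in each of the sets.

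Fabp7, which encodes a fatty acid binding protein known from brain, was at 7.73 to 20.9 CPM (median 10.7) in castrated and at 0 to 2.52 CPM (median 0) in ovariectomized libraries, without overlap (log2 fold change 3.94, SE 0.79, edgeR adjusted p = 4.82e-04, with 4.00 without and 3.52 with Tcf21 reads). Cd36, the receptor for uptake of long-chain fatty acids, was at 90.6 to 593 CPM (median 144) in castrated and at 0 to 67.4 CPM (median 41.1) in ovariectomized libraries, also without overlap. Castrated libraries I and J had the highest Cd36 levels, at 593 and 471 CPM. The log2 fold change of Cd36 was 2.43 (SE 0.41, edgeR adjusted p = 0.00192), with 2.07 in libraries without and 3.31 in libraries with Tcf21 reads. Cd36 is also used by macrophages, and its 2 highest libraries were those with the highest macrophage marker sum. The part of macrophages in the difference was not tested.

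Slc29a1, an equilibrative transporter of nucleosides, spread little within each group, with 247 to 328 CPM (median 300) in castrated and 98.0 to 187 CPM (median 134) in ovariectomized libraries. The groups did not overlap, at a log2 fold change of 1.09 (SE 0.16, edgeR adjusted p = 4.66e-04). The fitted difference was 0.78 in libraries without Tcf21 reads and above 1 in libraries with them. Alas1, the rate-limiting enzyme of heme synthesis, was at 183 to 650 CPM (median 284) against 116 to 157 CPM (median 134), also without overlap (log2 fold change 1.26, SE 0.21, edgeR adjusted p = 0.00183, with 1.28 without and 1.31 with Tcf21 reads). Il1rn, the interleukin 1 receptor antagonist, was at 53.4 to 155 CPM (median 107) against 15.2 to 48.4 CPM (median 30.8), with castrated libraries all above ovariectomized ones (log2 fold change 1.88, SE 0.25, edgeR adjusted p = 2.63e-04, with 1.29 without and 2.69 with Tcf21 reads). Lipa, the lysosomal acid lipase, and Anxa1, a phospholipid-binding protein, overlapped between groups and differed by 1.01 and 0.94 on the log2 scale. Castrated libraries I and J, which had the highest macrophage marker sum, were also the highest for Il1rn (155 and 140 CPM) and Lipa (233 and 195 CPM). The part of macrophages in the Il1rn and Lipa differences was not tested. Prkg2, a cGMP-dependent kinase, was higher by 1.24 without and by 4.05 with Tcf21 reads, and these differences were unequal (edgeR adjusted p = 0.00103).

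Most of the other genes higher in castrated ASC2 in both sets are best known from macrophages. Gpnmb, a lysosomal membrane glycoprotein, was at 670 to 2302 CPM (median 926) in castrated and 238 to 423 CPM (median 350) in ovariectomized libraries. Mmp12, the macrophage elastase, was at 143 to 1686 CPM (median 277) and 60.4 to 131 CPM (median 91.2), and Lyz2, lysozyme, at 1198 to 5848 CPM (median 1678) and 473 to 1009 CPM (median 797). In none of these 3 genes did the groups overlap, and castrated libraries I and J, which had the highest macrophage sum, were also the highest for all 3. The log2 fold changes without Tcf21 reads were 1.54 for Gpnmb, 1.68 for Mmp12 and 1.46 for Lyz2, and with Tcf21 reads 2.46, 3.90 and 2.57. Adam8, Ctss, Trem2, Cd68, Lcp1, Alox5ap, Myo1f, Cd300ld, Lilr4b and Gm49339 complete the 22 genes, with log2 fold changes over all 16 libraries between 1.62 (Ctss) and 2.61 (Cd300ld). Reads of Lilr4b may be shared with a close paralog.

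Contractile and cytoskeletal genes made up 4 of the 15 genes higher in ovariectomized ASC2 in both sets. Tagln, the actin-binding protein transgelin of smooth muscle and myofibroblasts, was at 64.2 to 547 CPM (median 229) in castrated and 511 to 1702 CPM (median 1132) in ovariectomized libraries. Only castrated library I, at 547 CPM, reached the lowest ovariectomized library, M. The log2 fold change was -2.29 (SE 0.29, edgeR adjusted p = 2.63e-04), with -2.25 without and -1.89 with Tcf21 reads. Actg2, the enteric smooth muscle actin, was at 1.49 to 19.5 CPM (median 6.25) against 35.1 to 134 CPM (median 50.2), and Tpm1, tropomyosin 1, at 366 to 721 CPM (median 581) against 935 to 1482 CPM (median 1148). Neither overlapped between groups. Myl9, a myosin regulatory light chain, was at 59.7 to 275 CPM (median 137) against 214 to 1311 CPM (median 841), and reached 1146 to 1311 CPM in ovariectomized libraries I to L against 214 to 537 CPM in M to P. Acta2, smooth muscle actin, was at 121 to 740 CPM (median 511) against 783 to 2107 CPM (median 1828), also without overlap. Its log2 fold change was -1.74 over all libraries (SE 0.25, edgeR adjusted p = 5.90e-04), -1.87 without Tcf21 reads (edgeR adjusted p = 9.17e-04) and -1.37 with them (edgeR adjusted p = 0.0737).

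Mural cells also use Acta2 and Tagln, so the other mural markers are given beside them. Of 7 mural markers tested, Acta2 and Tagln were the 2 called over all libraries, against 2.07% of all genes higher in ovariectomized ASC2. In libraries without Tcf21 reads 3 were called (Acta2, Tagln and Cspg4, a pericyte proteoglycan gene), and the median of the 7 was -1.41. In libraries with Tcf21 reads 1 was called (Tagln), and the median was -0.03. Cspg4 differed by -2.21 without Tcf21 reads (edgeR adjusted p = 0.0309) and by 0.31 with them (edgeR adjusted p = 0.911). The part of mural cells in the Acta2 and Tagln differences was not tested. Myh11, a smooth muscle myosin, was at 1.27 to 10.7 CPM (median 3.29) in castrated and 1.69 to 17.6 CPM (median 10.2) in ovariectomized libraries (edgeR adjusted p = 0.432), and Kcnj8, a pericyte channel gene, at 8.84 to 28.4 CPM (median 12.7) against 0 to 17.3 CPM (median 7.22, edgeR adjusted p = 0.449). The pericyte genes Rgs5, Abcc9 and Higd1b had too few reads to be tested.

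Promoter windows of contractile genes are shown as the sequence around the start of genes described above. Of 7 contractile genes looked up after their values had been seen (Acta1, Acta2, Actg2, Cnn1, Myl9, Tagln and Tpm1), 5 had an entry among the RefSeq promoters of build GRCm38.p6, which run from 250 bases before to 50 after the gene start. The CArG box, the site known for serum response factor, was searched on both strands as the exact pattern CCWWWWWWGG, with W for A or T. This pattern was found in the windows of Myl9 and Acta1 and not in the other 3. Sites that depart from it by any base were not searched for, so the other 3 windows may hold such sites. The exact pattern was found in 1.63% of all 32851 promoters in the table, and because the genes were chosen for their values no comparison with that share is drawn. Capitals mark the match. The Myl9 window is chr2:156775214-156775513 on the + strand, with the match starting at -161. The Acta1 window is chr8:123894726-123895025 on the - strand, with the match starting at -73. Both are printed 5′ to 3′ on the gene's strand.
Myl9: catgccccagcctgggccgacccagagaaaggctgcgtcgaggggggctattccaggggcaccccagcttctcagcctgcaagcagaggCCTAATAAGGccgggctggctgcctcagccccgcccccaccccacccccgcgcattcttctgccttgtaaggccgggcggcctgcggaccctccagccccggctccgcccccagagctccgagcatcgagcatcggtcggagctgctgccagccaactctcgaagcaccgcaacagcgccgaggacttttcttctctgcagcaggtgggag
Acta1: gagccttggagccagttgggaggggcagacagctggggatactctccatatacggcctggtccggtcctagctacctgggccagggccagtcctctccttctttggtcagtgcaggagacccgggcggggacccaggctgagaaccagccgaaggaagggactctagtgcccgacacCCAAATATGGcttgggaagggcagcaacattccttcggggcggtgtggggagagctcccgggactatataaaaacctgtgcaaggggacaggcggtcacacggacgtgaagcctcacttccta
A match describes these letters and says nothing of binding. Acta1, skeletal muscle actin, was at 1.27 to 22.4 CPM (median 3.83) in castrated and 9.44 to 56.4 CPM (median 40.9) in ovariectomized libraries, with overlap (log2 fold change -2.50, SE 0.51, edgeR adjusted p = 0.00566).

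Genes of secreted proteins also differed in both sets. Inhba, the subunit of activin A, was at 89.1 to 324 CPM (median 193) in castrated and 332 to 670 CPM (median 543) in ovariectomized libraries. The groups came close but did not overlap, and the log2 fold change was -1.36 (SE 0.22, edgeR adjusted p = 0.00143), with -1.51 without and -1.45 with Tcf21 reads. Thbs1, the matricellular protein thrombospondin 1, differed by -1.59 (SE 0.24, edgeR adjusted p = 0.00103, with -1.15 without and -1.72 with Tcf21 reads). Dkk3, a secreted protein related to Wnt inhibitors, was at 8.96 to 42.6 CPM (median 31.2) against 62.5 to 106 CPM (median 87.4) without overlap, and differed by -1.67 (SE 0.28, edgeR adjusted p = 0.00166, with -1.44 without and -2.67 with Tcf21 reads). The cytokine gene Mif was at 368 to 923 CPM (median 661) against 976 to 1883 CPM (median 1549), again without overlap (log2 fold change -1.11, SE 0.18, edgeR adjusted p = 0.00155, with -0.95 without and -1.15 with Tcf21 reads).

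Other genes higher in ovariectomized ASC2 in both sets were Arg1, Fads2, Serinc2, Fibin, Lrrc15 and Gm48529. Arg1, arginase 1, was at 0 to 8.12 CPM (median 3.73) in castrated and 16.1 to 59.0 CPM (median 25.7) in ovariectomized libraries, without overlap, in the direction opposite to the macrophage genes above (log2 fold change -3.12, SE 0.49, edgeR adjusted p = 4.66e-04, with -2.48 without and -2.95 with Tcf21 reads). Fads2, the delta-6 fatty acid desaturase, differed by -1.57 (SE 0.30, edgeR adjusted p = 0.00453, with -1.20 without and -1.42 with Tcf21 reads). Gm48529, annotated as an antisense RNA, was at 0 to 5.09 CPM in castrated and 0 to 214 CPM in ovariectomized libraries, with ovariectomized library M as the only one of its group at 0. The strand setting of the counting is not given in the sources used here, so its reads and those of its sense partner cannot be told apart.

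**Figure D3:**
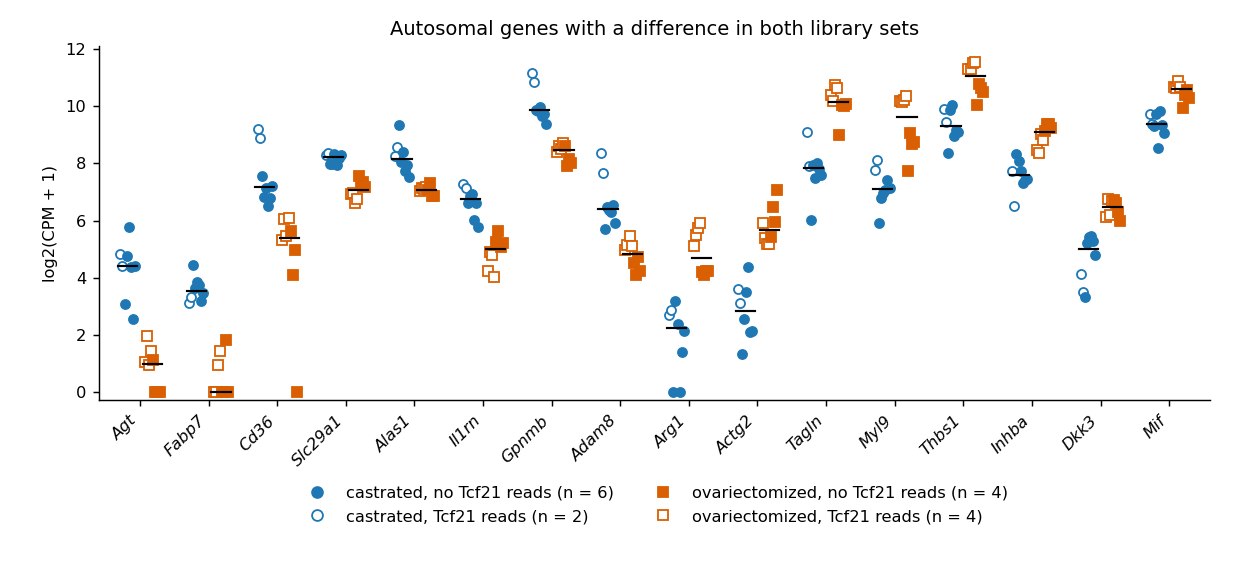
Level in each library, as log2 of CPM plus 1, of 16 autosomal genes called in all 16 libraries and in both library sets, with castrated libraries as circles, ovariectomized libraries as squares, open symbols for libraries with Tcf21 reads and a black line at the group median. The first 8 genes are higher in castrated and the last 8 higher in ovariectomized ASC2, and Slc29a1, Il1rn, Inhba and Dkk3 show no overlap between groups.

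The 12 autosomal genes with the largest log2 fold changes in castrated ASC2 at a mean of at least 10 CPM were Prl2c5, Agt, Gsta4, Nqo1, Pparg, Gsta3, Lat2, Mmp12, Cd300ld, Igkc, Cd36 and Trf. Prl2c5, a prolactin family gene whose reads may be shared with its paralogs, was at 39.2 to 87.0 CPM in castrated libraries L to P, at 1.27 to 5.97 CPM in castrated libraries I to K, and at 0 to 8.93 CPM in ovariectomized libraries. Pparg, the master transcription factor of adipocyte differentiation, was at 9.94 to 81.2 CPM (median 36.7) in castrated and 0 to 12.7 CPM (median 5.67) in ovariectomized libraries. Only castrated library I lay below the highest ovariectomized library. The log2 fold change of Pparg was 2.77 (SE 0.54, edgeR adjusted p = 0.00330), with 2.74 without Tcf21 reads (edgeR adjusted p = 0.0218) and 1.44 with them (edgeR adjusted p = 0.354).

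Gsta4 and Nqo1, enzymes of glutathione conjugation and quinone reduction, were highest in castrated library K. Gsta4 was at 30.0 to 60.1 CPM in the other 7 castrated libraries and at 0.963 to 27.7 CPM in ovariectomized libraries, so the groups did not overlap, and Nqo1 was at 48.4 to 125 CPM and 5.06 to 71.6 CPM. Without castrated library K the log2 fold change of Gsta4 was 2.15 (edgeR adjusted p = 0.00892) in place of 3.10, and that of Nqo1 was 1.86 (edgeR adjusted p = 0.0180) in place of 2.97. Trf, transferrin, was at 625 and 674 CPM in castrated libraries I and J and at 31.8 to 46.7 CPM in all the other libraries of both groups. Its call was lost in 8 of the 16 fits that left out 1 library, with log2 fold changes of 1.88 without castrated I and 1.82 without castrated J. The immunoglobulin gene Igkc was at 260 CPM in castrated library L and at 14.0 to 51.5 CPM in the other castrated libraries, and lost its call without ovariectomized library I (edgeR adjusted p = 0.0568) or K (edgeR adjusted p = 0.0550). Lat2, an adaptor protein of immune cells, lost it without castrated I (edgeR adjusted p = 0.0524) or ovariectomized J (edgeR adjusted p = 0.0556).

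The 12 genes with the largest fold changes in ovariectomized ASC2 divided between the 2 ovariectomized sets. Krt17, Krt5, Krt7, Krt8, Krt14 and Krt18, which encode epithelial keratins, Cldn4, a tight junction protein, and Sfn, an epithelial 14-3-3 protein, were high in libraries M to P. Krt17 was at 137 to 464 CPM there, at 0 CPM in ovariectomized libraries I to L and at 0 to 3.27 CPM in castrated libraries. Krt5 was at 43.9 to 117 CPM in libraries M to P and had no read in the other 12. Set against a floor of 3 counts over the castrated group, Krt5 was at least 32.8-fold higher in ovariectomized ASC2, and its call was lost in 8 of the 12 fits without 1 library that gave it a value. Of 8 mammary epithelium markers tested, 6 were higher in ovariectomized ASC2 over all libraries, 6 in libraries without and 0 in libraries with Tcf21 reads (edgeR, with 1 at an unadjusted p below 0.05 in the last). DESeq2 called 5 of the 8 over all libraries and limma voom called 0. The median log2 fold change of these 8 genes was -5.01, beside 0.03 over all genes tested. Clu, clusterin, followed the keratins, at 120 to 670 CPM in ovariectomized libraries M to P, 48.3 to 78.6 CPM in I to L and 7.47 to 43.4 CPM in castrated libraries.

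The other 4 genes were high in ovariectomized libraries I to L. Ngfr, the low-affinity nerve growth factor receptor, was at 450 to 613 CPM in these, at 5.03 to 27.7 CPM in ovariectomized libraries M to P and at 0 to 14.7 CPM in castrated libraries. Castrated libraries I and J, which also carry Tcf21 reads, were both at 0 CPM. Cyp7b1, an oxysterol hydroxylase, was at 153 to 176 CPM in ovariectomized libraries I to L, at 0 to 8.07 CPM in M to P and at 0 to 6.36 CPM in castrated libraries. Cilp, a matrix protein of cartilage, was at 218 to 298 CPM in ovariectomized libraries I to L, at 8.07 to 12.6 CPM in M to P and at 0 to 19.6 CPM in castrated libraries. Rxfp2, the receptor of the testis hormone INSL3, was at 38.8 to 58.8 CPM in I to L, at 0 CPM in M to P and at 0 to 3.34 CPM in castrated libraries. The difference between sets was past the threshold for Ngfr (edgeR adjusted p = 6.70e-05), Cyp7b1 (edgeR adjusted p = 0.0270) and Cilp (edgeR adjusted p = 0.0124), and for Rxfp2 it was not (edgeR adjusted p = 0.105).

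Gene lists were taken from the study's comparisons of other, intact mice, from its text or from general knowledge. The core lists used here hold the study's core set of sex-dimorphic ASC genes. They also hold Prelp, Avpr1a, AA474408 and Wasf1, which the study does not list in that set. Of these lists, 18 male-enriched and 13 female-enriched members were tested. Among the male-enriched genes 3 were higher in castrated ASC2 (Agt and the Y-linked Eif2s3y and Ddx3y) with a median log2 fold change of 0.33 beside 0.03 over all genes tested. Their other 15 members did not pass the test. Prelp, a matrix proteoglycan, was at 40.3 to 240 CPM (median 118) in castrated and 33.7 to 146 CPM (median 57.2) in ovariectomized libraries (edgeR adjusted p = 0.136). Arl4a, a small GTPase gene, was at 13.4 to 73.2 CPM (median 27.1) against 0 to 33.5 CPM (median 18.1, edgeR adjusted p = 0.357). Ace, the angiotensin converting enzyme, was at 12.4 to 168 CPM (median 61.8) against 8.93 to 89.0 CPM (median 54.2, edgeR adjusted p = 0.680).

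All 13 genes of the female-enriched core list, Wasf1 included, had lower fitted values in castrated ASC2, with a median of -1.58. Of these, 5 were called (Akr1c14, Ptpn5, Xist, P4ha3 and Il4ra). In libraries without Tcf21 reads the median was -0.52 and Xist was the only one called. In libraries with Tcf21 reads the median was -2.31 and 10 were called. Akr1c14, a 3-alpha-hydroxysteroid dehydrogenase, was at 82.3 to 164 CPM in ovariectomized libraries I to L, at 22.6 to 40.4 CPM in M to P and at 11.5 to 30.0 CPM in castrated libraries (log2 fold change -1.99, SE 0.37, edgeR adjusted p = 0.00315, and -0.52 without Tcf21 reads). Ptpn5, a tyrosine phosphatase, was at 212 to 274 CPM in ovariectomized libraries I to L and at 35.7 to 125 CPM in M to P. In castrated libraries Ptpn5 was at 0 and 1.10 CPM in J and I and at 13.4 to 73.1 CPM in K to P. Pgr, the progesterone receptor and a classical estrogen target, was at 0 to 19.5 CPM (median 4.30) in castrated and 0 to 66.4 CPM (median 20.8) in ovariectomized libraries and was not called over all libraries (edgeR adjusted p = 0.0583). It was at 32.4 to 66.4 CPM in ovariectomized libraries I to L and at 0 to 9.24 CPM in M to P.

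Lists of hormone response showed few calls. Of 13 androgen response and 14 estrogen response genes tested, 0 were called by edgeR over all 16 libraries, with 4 and 5 at an unadjusted p below 0.05. By DESeq2 1 androgen response gene (Pmepa1) and 2 estrogen response genes (Ctsd and Stc2) were called, and by limma voom 0 of either list. In libraries with Tcf21 reads 5 of the 14 estrogen response genes were called (Ccnd1, Ctsd, Greb1, Igf1 and Pgr), with Greb1 and Pgr higher in ovariectomized ASC2, against 4.37% of all genes. Of 12 steroid and pituitary hormone receptors, Rarb, a retinoic acid receptor, was the only one called. Of 15 genes of steroid metabolism, Akr1c14 and Cyp7b1 were higher in ovariectomized and Akr1c18, the 20-alpha-hydroxysteroid dehydrogenase that degrades progesterone, was higher in castrated ASC2. Akr1c18 was at 4472 CPM in castrated library K, at 291 to 610 CPM in the other castrated libraries and at 72.5 to 644 CPM in ovariectomized libraries. Without castrated library K its log2 fold change was 0.94 (edgeR adjusted p = 0.173) in place of 1.98, and the call held in 3 of 16 fits without 1 library.

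Adipogenic and lipid genes were called in both directions. Of 26 tested, 6 were higher in castrated ASC2 (Pparg, Cebpa, Fabp4, Cd36, Plin2 and Ebf2) and 2 in ovariectomized ASC2 (Scd2 and Gpam), with a median of -0.13. These shares stand against 1.53% of all genes higher in castrated and 2.07% higher in ovariectomized ASC2. In libraries without Tcf21 reads 4 were higher in castrated and 0 in ovariectomized ASC2 by edgeR, and in libraries with them 3 and 1. Fabp4, the adipocyte fatty acid binding protein, which macrophages also use, was at 55.8 to 140 CPM (median 115) in castrated and 8.07 to 57.3 CPM (median 34.8) in ovariectomized libraries (log2 fold change 1.46, SE 0.27, edgeR adjusted p = 0.00309). Castrated libraries M and J, at 55.8 and 57.3 CPM, were level with the highest ovariectomized library. Cebpa, a partner of Pparg in adipocyte differentiation, was at 11.9 to 33.4 CPM (median 17.5) against 0 to 16.1 CPM (median 4.00, edgeR adjusted p = 0.0117). All 21 genes of cholesterol synthesis had lower fitted values in castrated ASC2 (median -0.72), and 3 were called (Sqle, Fdft1 and Cyp51). Their median was -0.27 in libraries without Tcf21 reads, where 0 were called by edgeR, with 3 at an unadjusted p below 0.05. In libraries with Tcf21 reads their median was -1.04 and 6 were called. Over all libraries DESeq2 called 8 of the 21 genes and limma voom 2.

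Among 42 genes of other matrix and matricellular proteins, 10 were higher in ovariectomized ASC2 (Postn, Thbs1, Spon1, Ltbp4, Mfap4, Cilp, Ccn1, Ccn2, Lox and Loxl2) and 1, Efemp1, in castrated ASC2, against 2.07% and 1.53% of all genes. In libraries without Tcf21 reads 3 were higher in ovariectomized ASC2, and in libraries with them 10 were higher in ovariectomized and 2 in castrated ASC2. Of 22 collagen chains, Col1a1 was higher in ovariectomized and Col18a1 in castrated ASC2, and of 10 small leucine-rich proteoglycans 0 were called by edgeR, DESeq2 or limma voom, with 2 at an unadjusted p below 0.05 by edgeR. Col1a1, the main fibrillar collagen chain, was at 1037 to 2451 CPM (median 1444) in castrated and 1554 to 5855 CPM (median 3681) in ovariectomized libraries (log2 fold change -1.14, edgeR adjusted p = 0.0200, and -0.61 without Tcf21 reads, edgeR adjusted p = 0.249). Efemp1, which encodes fibulin 3 and stands on the visceral depot list, was at 725 to 1077 CPM in castrated libraries, at 205 to 284 CPM in ovariectomized libraries I to L and at 508 to 819 CPM in M to P. Of 5 posterior Hox genes tested, Hoxd10 and Hoxd11 were higher in ovariectomized ASC2 over all libraries by edgeR, while DESeq2 and limma voom called 0, each with 3 at an unadjusted p below 0.05. Of these 5 genes edgeR called 0 in libraries without Tcf21 reads (1 at an unadjusted p below 0.05) and 5 in libraries with them. Hoxd10 was at 7.70 to 16.9 CPM in ovariectomized libraries I to L and had no read in the other 12, castrated I and J included.

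**Figure D4:**
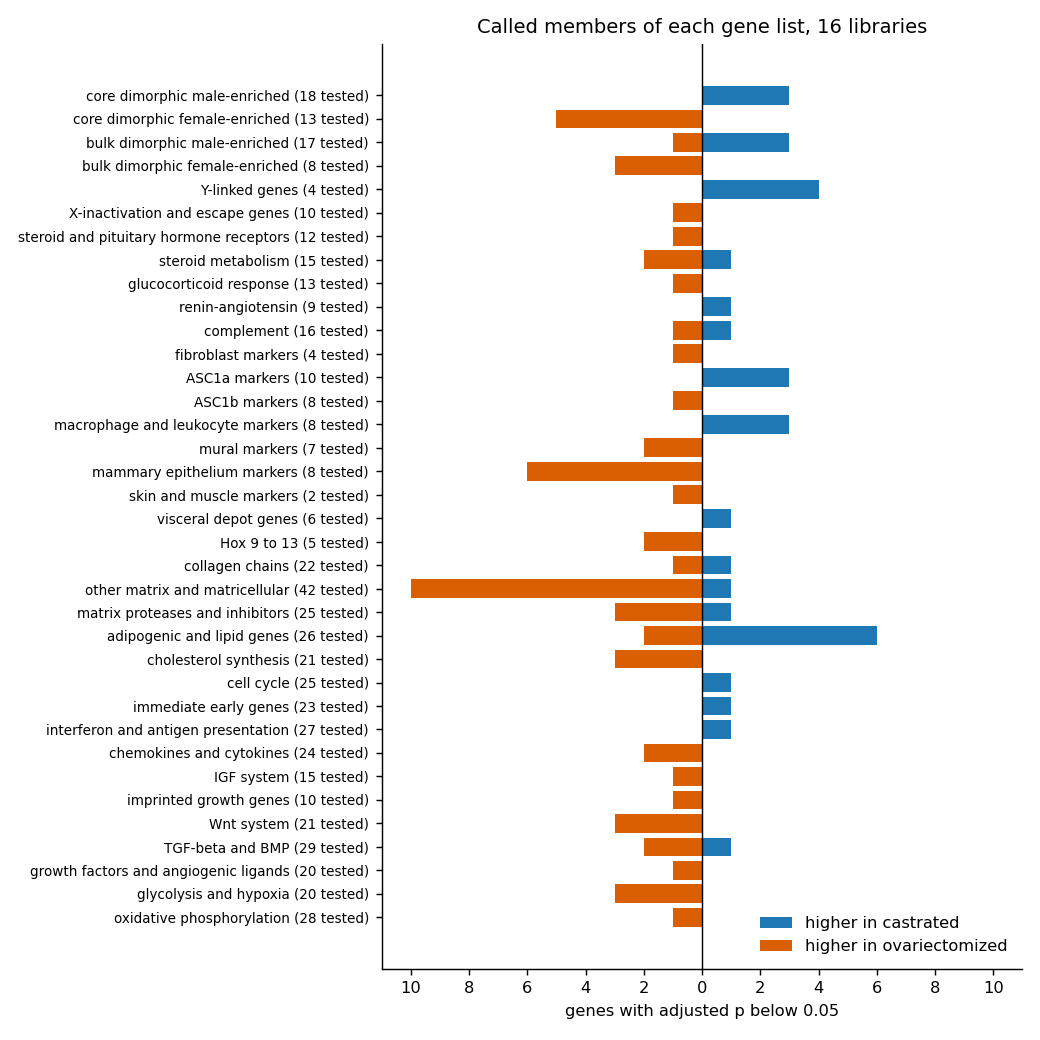
Number of list members with an adjusted p below 0.05 over the 16 libraries, higher in castrated (to the right) and higher in ovariectomized ASC2 (to the left), for the lists with at least 1 called gene, with the number of members tested beside each name. The longest bars are the 10 matrix genes and the 6 mammary epithelium genes higher in ovariectomized ASC2 and the 6 adipogenic genes higher in castrated ASC2, against 1.53% of all genes called higher in castrated and 2.07% higher in ovariectomized ASC2.

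Outside the autosomes, 10 X-linked genes were higher in castrated and 5 in ovariectomized ASC2 out of 325 tested, or 4.62%, near the 3.60% over all genes. Kdm5c, which escapes X inactivation, was at 28.4 to 73.4 CPM (median 37.3) in castrated and 58.8 to 109 CPM (median 66.8) in ovariectomized libraries and was not called (edgeR adjusted p = 0.0735). Eif2s3x, another escape gene, was at 90.3 to 153 CPM (median 108) against 125 to 184 CPM (median 139, edgeR adjusted p = 0.259). Of 10 X-inactivation and escape genes tested Xist was the only one called. Against the floor of 3 counts over the ovariectomized group, Eif2s3y was at least 58.9-fold and Ddx3y at least 42.0-fold higher in castrated ASC2.

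Convergence was read against the control ASC2 libraries, which carry a limit of their own. Sex chromosome transcripts went against the label in 4 of 8 libraries labelled control male and in 6 of 8 libraries labelled control female, by 20 or more Xist reads or 3 or more Y reads. These libraries held transcripts of both sexes, with 8 to 32 Y reads beside 27 to 71 Xist reads in the 4 labelled control male and 23 to 47 Y reads beside 4 to 55 Xist reads in the 6 labelled control female. Sult1e1 and C7, genes that the study treats as male-specific, followed the labels in all 16 control libraries. The study reports low Ddx3y and Eif2s3y counts in its female control samples and takes them as a weak contamination with mRNA of males. It trusts these samples because Sult1e1 and C7 were low there beside male controls. The source of the other sex's transcripts was not tested here. The 2 libraries labelled control female that matched their label were also the 2 with Tcf21 reads, so sex and library set cannot be told apart among them. Between the control labels 583 genes (4.91% of 11864) differed, and 374 autosomal genes (3.28% of 11401) also differed at least 2-fold, 221 higher in libraries labelled male and 153 higher in those labelled female. Each of these was placed by its difference between castrated and ovariectomized ASC2 in the same fit of 32 libraries, whose scaling the CPM values of this comparison share. A gene was counted as converged where it was not called there and the 95% interval of its difference lay within 2-fold in either direction.

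Of the 374 genes, 84 had converged, 28 were still called in the same direction, 3 were called in the opposite direction and 259 were not called but had a wider interval, which leaves them undetermined. Without the libraries that went against their label the counts were 49, 98, 0 and 89 of 236 genes, and with a term for Tcf21 reads 108, 11, 6 and 291 of 416. With an interval of 1.5-fold, 2 genes counted as converged.

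Among converged genes that were higher in libraries labelled control female, Ptx3, a secreted pentraxin, was at 1.55 to 11.6 CPM in libraries labelled control male and 11.2 to 52.8 CPM in those labelled control female. In gonadectomized ASC2 Ptx3 was at 7.18 to 36.2 CPM in castrated and 0 to 36.5 CPM in ovariectomized libraries, and its difference there was -0.09 with an interval of -0.86 to 0.67. Sfrp4, a Wnt antagonist, differed by -1.73 between the control labels and by 0.04 (interval -0.64 to 0.72) between castrated and ovariectomized ASC2. H2-Ab1, an MHC class II gene, Chchd2, a mitochondrial regulator, and G0s2, an inhibitor of lipolysis, had control differences of -1.70, -1.56 and -1.58 and gonadectomized differences of -0.12, -0.42 and -0.10.

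Among converged genes that were higher in libraries labelled control male, Cplx2, a complexin of vesicle release, was at 46.3 to 384 CPM against 4.80 to 44.9 CPM between the control labels. Its levels were 11.9 to 66.7 CPM in castrated and 14.8 to 43.3 CPM in ovariectomized libraries, a difference of 0.08 (interval -0.70 to 0.86). H19, an imprinted long noncoding RNA, differed by 2.04 between the control labels and by 0.08 (interval -0.75 to 0.92) after gonadectomy. Klf13, a transcription factor, Zc3hav1, an antiviral RNA-binding protein, and Tnfrsf26, a TNF receptor superfamily member, had control differences of 2.28, 1.86 and 1.95. Their gonadectomized differences were 0.05, 0.20 and 0.13. Without the libraries against their label, Ptx3, Chchd2 and Cplx2 still counted as converged, and the other 7 were no longer called with at least a 2-fold difference between the control labels.

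The largest control differences were of genes that were almost silent without gonads. C7, a complement component, was at 207 to 1664 CPM in libraries labelled control male, 0 to 14.5 CPM in those labelled control female, 0 to 7.43 CPM in castrated and 0 to 3.98 CPM in ovariectomized libraries. Sult1e1, the estrogen sulfotransferase, was at 34.2 to 154 CPM in libraries labelled control male and had no read in the other 24 ASC2 libraries. The gonadectomized levels of both were thus in the range of the libraries labelled control female, and they stay undetermined here because the interval of C7 (-1.43 to 3.41) was wider than 2-fold and that of Sult1e1 could not be given. Agt was not among the 374, with a control difference of -0.20 over all 16 control libraries, those against their label included. In the control libraries that matched their label, Agt had 5 to 18 reads in male A to D and 5 reads each in female C and D. The gonadectomized minus the control difference of Agt was 4.18 over all libraries (edgeR adjusted p = 0.0102). It was 2.49 without the libraries against their label (edgeR adjusted p = 0.761).

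Of the 28 genes that were still called, 23 were higher in ovariectomized and in control female libraries as labelled. They included Akr1c14, Cyp7b1, Frzb, Spon1, Myl9, Mif and Il4ra, and Frzb, a Wnt antagonist, was at 335 to 354 CPM in ovariectomized libraries I to L and at 0 to 17.9 CPM in M to P. In libraries labelled control female Frzb was at 220 and 288 CPM in the 2 that matched their label, which carry Tcf21 reads, and had a median of 2.76 CPM over all 8. In those same 2 libraries, C and D, Cyp7b1 had 125 and 122 reads and Il4ra 979 and 862. The other libraries labelled control female had 0 to 4 and 123 to 356. Akr1c14 went otherwise, with 196 and 129 reads in C and D and 298 in E. With a term for Tcf21 reads 11 genes were still called, 6 of them higher in libraries labelled control female. Among the 5 of the 28 genes that were higher in castrated ASC2, Egr2, an immediate early transcription factor, differed by 1.12 after gonadectomy and 1.04 between the control labels. Mmp13, a collagenase, differed by 2.39 and 1.17. The 3 genes with opposite directions were Akr1c18, Dkk3 and Lrrc15. Dkk3 was at 66.4 to 149 CPM in libraries labelled control male and 17.6 to 73.0 CPM in those labelled control female, the reverse of the order after gonadectomy. The gonadectomized and the control difference were unequal by a test of the difference itself for 47 of 11864 genes (0.396%) by edgeR. Without the libraries against their label this was 0 by edgeR, although 743 genes had an unadjusted p below 0.05, and in all libraries it was 119 by DESeq2.

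**Figure D5:**
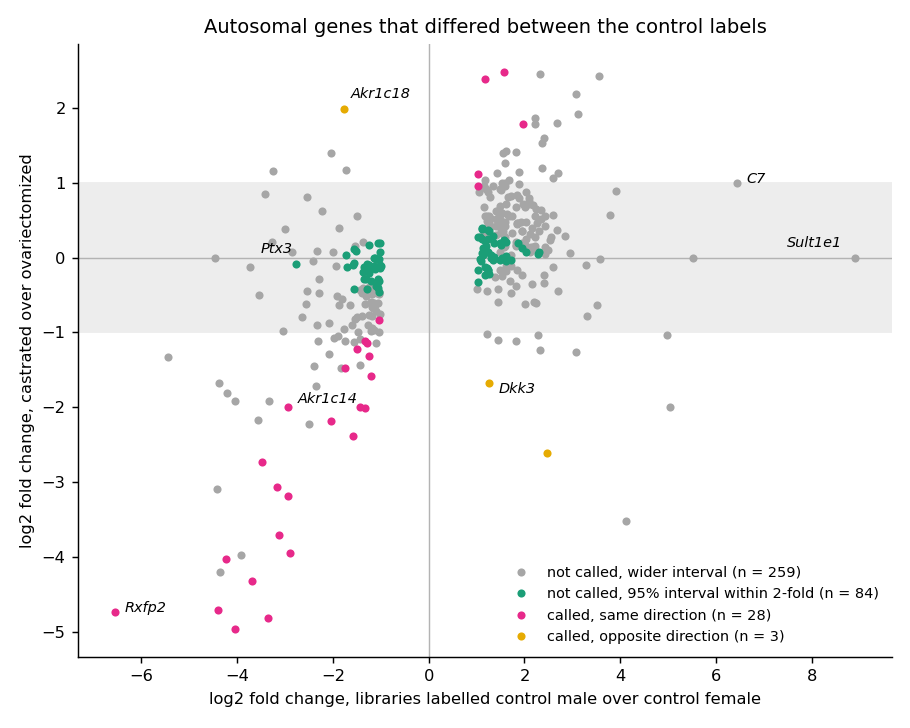
Log2 fold change of castrated over ovariectomized ASC2 (vertical axis) against that of libraries labelled control male over control female (horizontal axis) for the 374 autosomal genes that differed at least 2-fold between the control labels, with the grey band at 2-fold or less after gonadectomy. The 84 converged genes lie within the band, most of the 28 genes called in the same direction lie outside it, and C7 and Sult1e1 lie far to the right.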

How the data were processed

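The series is bulk Smart-seq3 of sorted adipose stem cells, and 16 libraries, 8 castrated and 8 ovariectomized ASC2, were compared. The authors trimmed adapters with NGmerge, checked reads with FastQC 0.11.9, STAR 2.7.10a and MultiQC 1.12, quantified them with Salmon 1.9.0 on Gencode transcripts of GRCm39, removed libraries under 8500 genes and deposited unnormalized estimated counts per gene (tool versions from the submitters' processing notes). Of values above 0, 15% were not whole and all were rounded. The table holds 56953 genes in 58 library columns. Gene symbols came, by gene identifier, from an earlier Gencode release (GRCm38), whose coordinates were not used.

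Counts were tested in R 4.3.3 with edgeR 4.0.16 (TMM, glmQLFit and glmQLFTest) for genes with 5 or more reads in at least 4 of the 16 libraries, with 1 coefficient per group and Benjamini-Hochberg adjustment over all genes tested. Control differences, convergence and the difference between differences came from 1 fit of the 32 ASC2 libraries. The biological coefficient of variation was 34.9%. Total counts of 106566 to 1118901 per library set the precision of low genes, and the floor of 3 counts covers counting error only. Exact permutation tests used scipy 1.17.1 in Python 3.11.15. The code was tested on simulated data. None of 56 pairs of libraries within a group agreed within sampling noise (lowest chi-square per gene 1.53).

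Named are the 12 autosomal genes with the largest fold change in each direction (called, at least 10 CPM, no Gm or Rik names or pseudogenes), core dimorphic genes, up to 4 called members per list, defining markers, 5 converged genes in each direction (at least 10 CPM over 32 libraries), and sex chromosome genes as a check. Others are named where a list, a call in both sets or a class after gonadectomy was enumerated, and were chosen after their values were seen. The members and lists were chosen with earlier results of these data known. Library sets by Tcf21 reads (at least 5) were defined after values per library had been seen, and their contrasts came from 1 fit with a coefficient for each group in each set. Libraries labelled male with at least 20 Xist reads, or labelled female with at least 3 Y reads, were taken as against their label.

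Alternatives were DESeq2 1.42.0, limma 3.58.1 voom, scaling by RLE or by library size alone, filterByExpr or no count filter, robust estimation, fits of 58 or 32 libraries, a block by plate letter, a 2-fold minimum, and each library left out in turn. The plate letters do not pair the libraries, since same-letter libraries correlated in their deviations between -0.0664 and 0.251 and over 0.1 in 2 of 8 pairs. ASC1 libraries entered only the fit of all 58. One called gene is not reported here.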

Additional observations from a re-analysis of the deposited data

Results flagged for a closer look

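In 302 sets of 8 libraries, the levels of the 149 tested named genes, total counts and detected genes were searched for an outlying library. This was a library whose gap to the nearest other one was too wide for its group by Dixon's criterion. In 37 sets there was such a library, and chance gives about 1 in 20. Most of these were castrated library K or ovariectomized library P, the latter with the lowest total count.

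Castrated library K was the highest of its group for Akr1c18 (4472 CPM, others 291 to 610), Nqo1 (869 CPM, others 48.4 to 125) and Gsta4 (355 CPM, others 30.0 to 60.1). It was the lowest for Col15a1 (1.49 CPM, others 74.6 to 435), Egfr (41.8 CPM, others 266 to 315), Pdgfra (109 CPM, others 243 to 411), Acta2 (121 CPM, others 453 to 740) and Bgn (1432 CPM, others 3406 to 5235). It was also the lowest for P4ha2 at 68.7 CPM, Cyp51 at 19.4 CPM, Fkbp5 at 10.5 CPM and Arhgap24 at 7.47 CPM. Castrated library L was the highest for Igkc at 260 CPM, and castrated library O was the only castrated library with Krt17, at 3.27 CPM.

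Ovariectomized library P was the lowest of its group for Xist at 26.8 CPM (others 50.3 to 83.8), Chchd2 at 80.4 CPM (others 179 to 303) and Ace at 8.93 CPM (others 40.4 to 89.0). It was at 0 CPM, as the only library of its group, for Igkc, Cd36, Slc25a30, Arl4a, Gdf10, Arl4d, Fmo2, Pecam1, Cd14, Kcnj8, Ptx3 and Kdm6a. Ovariectomized library M was the lowest for Tagln at 511 CPM (others 1032 to 1702), Acta2 at 783 CPM (others 1565 to 2107) and Cplx2 at 15.0 CPM. Ovariectomized library N was the lowest for Fabp4 and Id2, both at 8.07 CPM. Ovariectomized library O was the lowest for Fbxw17 at 10.1 CPM and Cdh5 at 5.03 CPM and was at 0 CPM for G0s2.

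For 18 named genes the difference between castrated and ovariectomized ASC2 was unequal to that between the control labels, by the test of the difference itself (edgeR, adjusted p between 9.37e-05 and 0.0446 over the genes). On the log2 scale the gonadectomized minus the control difference was 4.18 for Agt, 4.09 for Gsta4, 3.94 for Igkc, 3.75 for Akr1c18, 2.85 for Kcnj8, 2.67 for Ptx3 and 2.22 for Fabp4. It was -2.94 for Dkk3, -2.60 for Gdf10, -2.22 for Cplx2 and -1.44 for Cyp51. For epithelial genes it was -11.34 for Krt17, -7.57 for Krt7, -6.87 for Krt8, -6.31 for Sfn and -5.35 for Krt18. For the Y-linked genes Eif2s3y and Ddx3y it was 6.66 and 6.56, beside Y reads in 6 of 8 libraries labelled control female. Without the libraries against their label none of the 18 passed the threshold (edgeR adjusted p between 0.732 and 1), with 6 control libraries left. Krt8 had 9 to 78 reads in libraries labelled control male E to H, which went against their label, and 0 in A to D. Without the libraries against their label the difference was 0.01 for Krt8, -0.39 for Krt7 and 1.37 for Krt18. It was -8.00 for Krt17 and -4.08 for Sfn.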

How the results depend on the processing

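The 391 calls between castrated and ovariectomized ASC2 lay between 278 and 562 under other size factors (392 and 376), no count filter (562), robust estimation (332), DESeq2 (508), limma voom (278), fits of 58 (491) or 32 libraries (349), a 2-fold minimum (301) and a term for Tcf21 reads (357), and were 258 with filterByExpr, which tests fewer genes. A block by plate letter gave 291, 534 and 48 calls in place of 391, 583 and 47 for the gonadectomized, the control and the difference of differences, and 2 of 8 castrated libraries correlated best with their own letter, so letters are not taken as pairs. Without 1 library the count was 191 to 488, with 81 to 192 autosomal genes higher in castrated and 97 to 280 higher in ovariectomized ASC2. The 4 lowest counts were without ovariectomized I (191), K (199), J (210) and L (217), the 4 libraries of that group with Tcf21 reads. Libraries without Tcf21 reads gave 99 calls (43 and 51 autosomal by direction), and 118 (52 and 62) when castrated K and ovariectomized P were also left out. Without K and P over all libraries, the castrated minus ovariectomized difference in mean was -72000.6 total counts and -200.143 detected genes, in place of 15000.5 and 327.75. Signs reversed in libraries with Tcf21 reads for Cldn4 (2.06), Sfn (0.61), Krt8 (0.32) and Krt18 (0.07), and in libraries without them for Rxfp2 (2.43), Cyp7b1 (0.64) and Frzb (0.03). With K and P also left out they reversed for Svep1 (1.58), Fdft1 (0.09) and Gpam (0.02). Without the libraries against their label the control calls fell from 583 to 252, the difference of differences from 47 to 0, and the converged and still differing genes were 49 and 98 in place of 84 and 28. The difference of differences was 75 in the fit of 58 libraries, 119 by DESeq2 and 92 with a term for Tcf21 reads, where 11 genes still differed. An interval of 1.5-fold left 2 converged genes. Where not stated, the cause of a change was not tested. Of 82 called named genes none reversed outside the library sets, 53 kept their call by limma voom and 80 with RLE size factors. Depth limits the low genes, such as Agt in ovariectomized libraries, and library P most.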
